A study of Mus musculus with 4 samples.

Results

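The genes described here are the chemosensory receptors of the mouse: olfactory receptors (Olfr), vomeronasal receptors of both families (Vmn1r and Vmn2r), trace amine-associated receptors (Taar) and taste receptors of both families (Tas1r and Tas2r). They were picked by symbol, leaving out names that end in -ps and a number, which mark pseudogenes. In all, 148 of them were on at least 1 of the 3 complete gene lists of the series, among 29652 genes on any of these lists. The annotation holds 1513 genes that the same naming rule picks.

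The lists come from 4 single-cell RNA sequencing libraries of fetal mouse pancreas on a C57BL/6 background, 1 library for each age and genotype, made from flow-sorted cells labelled for the epithelial surface protein EpCAM. All embryos carried floxed Setd2 alleles (f/f). The libraries labelled WT, from E13.5 and E15.5, were Setd2 f/f. The libraries labelled KO, from the same ages, carried Pdxcre with Setd2 f/f, so that Setd2, a histone H3 lysine 36 methyltransferase, is deleted where the Pdx promoter drives Cre and not in other cells of the tissue. The number of embryos behind a library is unknown here.

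Each list gives names and no values, so a gene is either listed or not listed. Which genes qualified for a list, and from how many reads and cells, the labels do not say. The complete lists held 25463 genes for E13.5 WT, 26341 for E13.5 KO and 25474 for E15.5 KO. Setd2 was on all 3 of them, those labelled KO included, and since a list of names shows no level or exon this checks neither label. The E15.5 WT list breaks off after 167 genes. The 14 markers of pancreatic epithelium that were checked, among them Epcam, Cdh1, Pdx1, Ptf1a, Ins1 and Gcg, were on all 3 complete lists. With 1 library per group there is no replicate spread and no test, and every count below describes these libraries.

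Olfactory receptors form the largest gene family of the mouse genome. A mature olfactory neuron expresses a single receptor gene, and its receptor signals through the G protein subunit Gnal, the adenylyl cyclase Adcy3 and a cyclic nucleotide-gated channel. Vomeronasal receptors detect pheromones in the vomeronasal organ and signal through the channel Trpc2, while trace amine-associated receptors detect volatile amines. Tas1r receptors pair up to sense sweet and umami taste, Tas2r receptors sense bitter compounds, and both signal through Plcb2 and Trpm5. Most of these genes have no known role in the pancreas, so how often they are listed gives a floor for the listing of genes that are taken to be silent in this tissue. The sweet receptor subunits and Taar1 differ in this respect, since both have been described in pancreatic beta cells.

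Few receptors were listed in any library. The E13.5 WT list held 78 of the 1513 annotated receptors (5.16%), that of E13.5 KO 82 (5.42%) and that of E15.5 KO 58 (3.83%). Of the 20540 other protein-coding genes, the same lists held 82.9%, 83.1% and 81.1%. Ribosomal protein genes, at 98 of 99 in each list, mark the upper end. The olfactory receptors made up most of the count, of which the E13.5 WT list held 58 of 1126, the KO list of that age 61 and the E15.5 KO list 36. Vmn1r receptors numbered 11, 9 and 11 of 211 in the same order, and Vmn2r receptors 5, 5 and 5 of 122. The 3 large classes therefore lay between 3.20% and 5.42% in every complete list. Other families with tissue-restricted expression were listed more often: the hair keratin-associated proteins (Krtap) at 12.3%, 8.77% and 15.8% of 57 genes, and the beta-defensins (Defb) at 11.9%, 23.8% and 14.3% of 42. The Gpr genes, G protein-coupled receptors outside the senses, were at 77.3%, 84.0% and 72.0% of 75 genes.

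**Figure D1:**
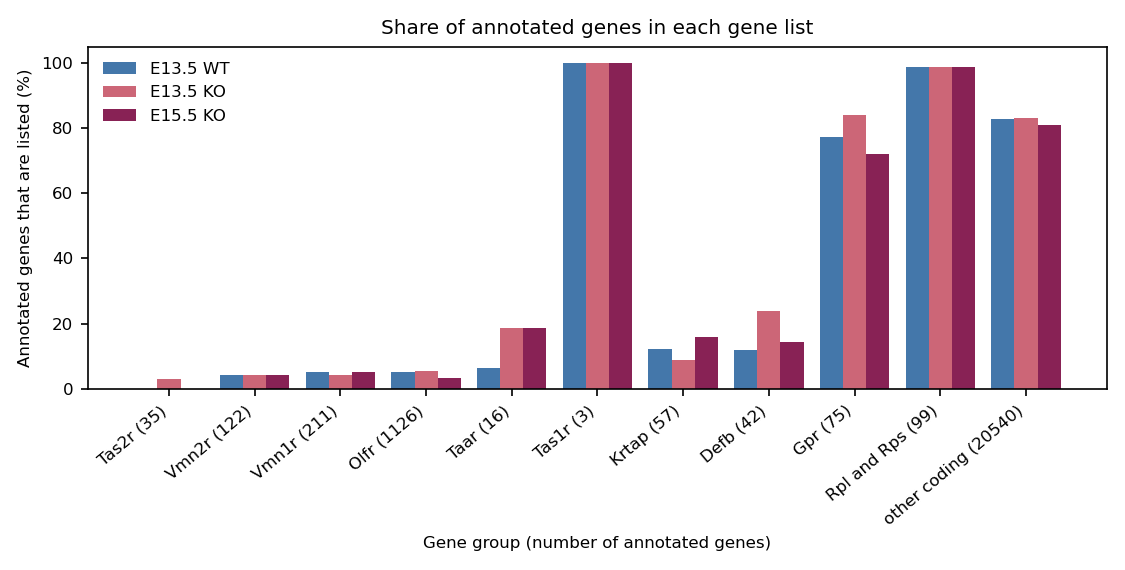
Share of annotated genes on each complete gene list (vertical axis, %) for the 6 receptor classes, 4 other gene families and the other protein-coding genes (horizontal axis, number of annotated genes in brackets). Olfr, Vmn1r and Vmn2r bars lie between 3.20% and 5.42%, all 3 Tas1r genes are listed everywhere, and the other coding genes lie above 80%.

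The small classes stood apart from the large ones. All 3 Tas1r genes were on all 3 complete lists. Tas1r1 (chromosome 4, 152027914 to 152038568; coordinates here are GRCm38) encodes the umami-specific subunit, Tas1r2 (chromosome 4, 139653538 to 139670280) the sweet-specific subunit and Tas1r3 (chromosome 4, 155859268 to 155863362) the subunit that both receptors share. Of 35 Tas2r genes, 1 was listed in any library: Tas2r143, in E13.5 KO alone. Of 16 Taar genes, Taar1 (chromosome 10, 23920356 to 23921469) was on all 3 lists, Taar4 on both KO lists, Taar2 in E13.5 KO alone and Taar7d in E15.5 KO alone. The E13.5 WT list thus held 1 Taar gene and each KO list 3, a difference of 2 genes between single libraries.

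The 22 receptors on all 3 complete lists comprised 14 olfactory receptors, Vmn1r4, Vmn1r15, Vmn2r1, Vmn2r18, Taar1 and the 3 Tas1r genes. The olfactory receptors were Olfr56, Olfr77, Olfr168, Olfr286, Olfr482, Olfr655, Olfr658, Olfr912, Olfr920, Olfr1033, Olfr1183, Olfr1393, Olfr1404 and Olfr1423. They lie on 8 chromosomes, with at most 3 on any. Recurrence was low for the group as a whole. Of the 148 receptors on any list, 100 (67.6%) were on 1 list, 26 on 2 and 22 (14.9%) on all 3. Among the 17801 other protein-coding genes on any list, 16018 (89.98%) were on all 3. The receptors on a single list numbered 37 for E13.5 WT, 36 for the KO library of that age and 27 for E15.5 KO.

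**Figure D2:**
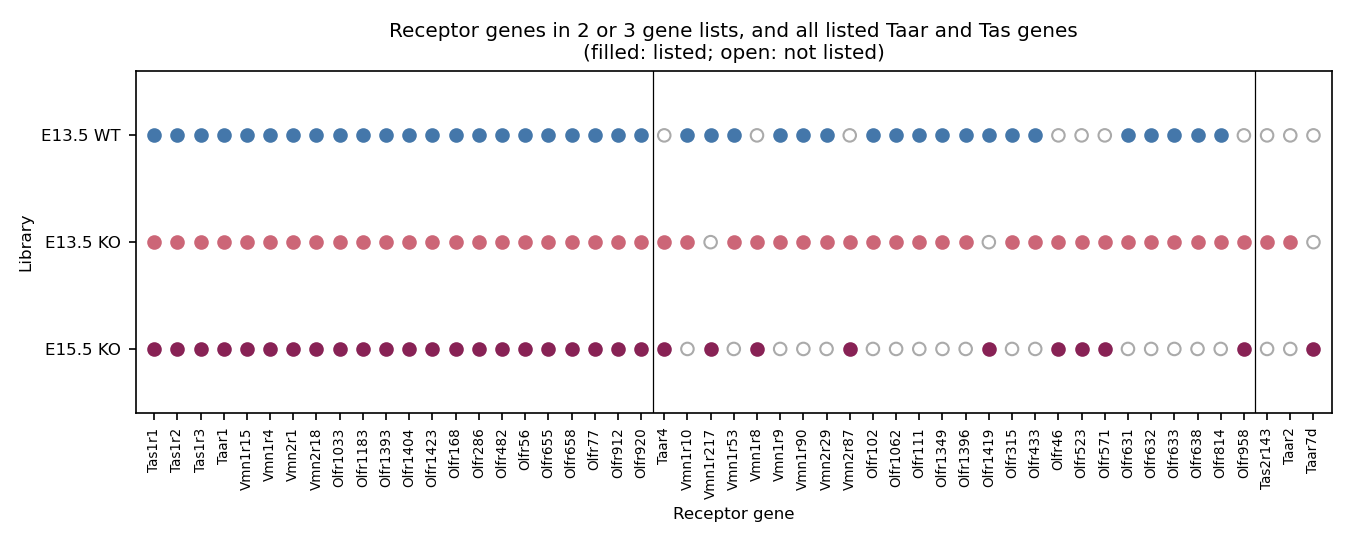
Receptor genes on 2 or 3 complete lists, together with every listed Taar and Tas gene (horizontal axis), against the 3 libraries (vertical axis), with filled circles for listed and open circles for not listed. The first 22 genes are filled in all 3 rows, and the next 26 in 2 of them.

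**Figure D3:**
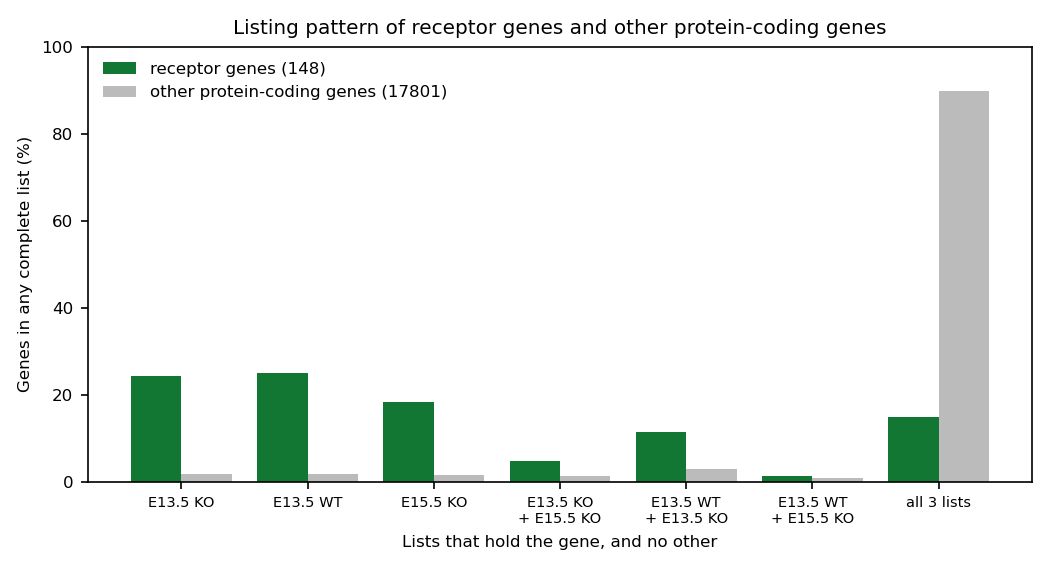
Percent of genes on any complete list (vertical axis) by the exact set of lists that hold them (horizontal axis), for the 148 receptors and the 17801 other protein-coding genes. Receptors on 1 list make up 18.2% to 25.0% for each library, against 1.43% to 1.74% of other coding genes.

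Although few receptors recurred, a listing in 1 library went with a listing in another, as it did for other genes. Of the 78 receptors in E13.5 WT, 39 (50%) were also in E13.5 KO. Of the 1435 receptors not in E13.5 WT, 43 (2.997%) were in E13.5 KO. For the other coding genes the shares were 97.2% and 14.7%. The same held between the KO ages, where 29 of the 82 receptors of E13.5 KO (35.4%) were in E15.5 KO, against 29 of the 1431 others (2.03%), where other coding genes gave 95.1% and 12.1%. The E13.5 WT and E15.5 KO lists shared 24 receptors, which are 30.8% of the WT list and 41.4% of the KO list. Receptors on both E13.5 lists and not in E15.5 KO numbered 17, those on both KO lists and not in E13.5 WT numbered 7, and those in E13.5 WT and E15.5 KO alone numbered 2, Olfr1419 and Vmn1r217. Among the other coding genes these patterns had 537, 222 and 165 members, in the same order of size.

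At E13.5 the numbers of receptors in 1 genotype only were close. Of 121 receptors on either list, 39 (32.2%) were on both, 43 (35.5%) in KO only and 39 (32.2%) in WT only. Over all genes on either list, 9.72% were in KO only and 6.61% in WT only, and over protein-coding genes 3.17% and 2.91%. Every listed receptor is annotated as protein-coding, so the coding genes are the closer background. By class, KO only against WT only was 35 against 32 for Olfr, 3 against 5 for Vmn1r, 2 against 2 for Vmn2r, 2 against 0 for Taar and 1 against 0 for Tas2r.

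Between the KO ages more receptors were in the younger library only. Of 111 receptors on either KO list, 29 (26.1%) were on both, 53 (47.7%) in E13.5 KO only and 29 (26.1%) in E15.5 KO only. Over all genes on either KO list, 10.4% were in the younger library only and 7.37% in the older only, and over protein-coding genes 5.03% and 2.55%. The direction of the receptors was thus that of the coding genes as a whole. It lay in the olfactory receptors, 43 of which were in the younger library only and 18 in the older only. Vmn1r receptors were 6 and 8, and Vmn2r receptors 2 and 2. Age, sort and library coincide here and cannot be told apart.

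Counted per annotated gene, receptors entered 1 list and not the other about as often as any other coding gene. Receptors in E13.5 KO and not in E13.5 WT were 2.84% of the 1513 annotated, and those in WT and not in KO 2.58%. For the other coding genes the shares were 2.52% and 2.31%. In the comparison of KO ages, receptors at E15.5 only were 1.92% of those annotated and receptors at E13.5 only 3.50%, beside 2.04% and 4.05% of the other coding genes. Receptors are 1488 of the 22028 annotated coding genes, or 6.76%. They supplied 7.68% of the 560 coding genes in E13.5 KO only, 7.59% of the 514 in E13.5 WT only, 6.47% of the 448 in E15.5 KO only and 5.99% of the 885 in E13.5 KO only of the KO pair. The measure depends on what it is divided by. Of coding genes other than receptors that E13.5 WT lacked, 14.7% were in E13.5 KO, against 2.997% of the receptors it lacked.

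Where the E15.5 WT list reaches, the annotation has 1 receptor. This is Vmn2r88 (chromosome 14, 51410820 to 51420721), which was not listed in E15.5 WT or in any complete list. Nothing else can be said here of receptors at E15.5 in WT.

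Of 27 receptors chosen for reports of expression outside the sense organs, 9 were on any complete list and 5 on all 3. Over all 1513 annotated receptors, 148 (9.78%) were on any list and 22 on all 3. The 5 were Tas1r1, Tas1r2, Tas1r3, Taar1 and Olfr1393, the last known from the kidney tubule. Olfr78, a short-chain fatty acid and lactate receptor of the carotid body and vessels, and Olfr558 were in E13.5 WT alone. Olfr15 and Tas2r143 were in E13.5 KO alone. The 18 on no complete list included Olfr16, Olfr544, Olfr109, Olfr821, Tas2r105, Tas2r108, Tas2r138 and Taar5.

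Components of the receptor pathways were listed more widely than the receptors, and many of them are known from other cells as well. Beside the counts below stand the other coding genes, of which each complete list held 81.1% to 83.1%. Of 19 olfactory signalling genes, E13.5 WT had 14 and the KO libraries 16 each. Gnal, Adcy3 and Omp, the olfactory marker protein, were on all 3 complete lists. The channel subunit Cnga2 was on both KO lists and not in E13.5 WT, and Cnga4 was in E15.5 KO alone. Of the other channel subunits on that list of genes, Cnga3 was in both E13.5 libraries and not in E15.5 KO, and Cngb1 was on all 3 lists. Rtp1 and Rtp2, which carry olfactory receptors to the cell surface, were on no complete list. Of 11 vomeronasal genes, each E13.5 list held 4 and the E15.5 KO list 5. Trpc2 and the formyl peptide receptors Fpr-rs3, Fpr-rs4, Fpr-rs6, Fpr-rs7 and Fpr3 were on none. Of 14 taste and tuft cell genes, 10 were on each list. Gnat3, the taste G protein, and Plcb2, Trpm5, Pou2f3 and Dclk1, which also mark tuft cells, were on all 3. Calhm1 and Calhm3, which form the neurotransmitter release channel of taste cells, and Rgs21 were on none. Of 14 genes for receptor choice and neuron maturation, 13, 13 and 11 were listed, with Lhx2 and Emx2 in both E13.5 lists and not in E15.5 KO. Lhx2 falls within the reach of the E15.5 WT list and was not on it. Among markers of other cell types, the complete lists in the order above held 5, 6 and 6 of 6 for olfactory neurons, 3 of 4 each for vomeronasal neurons, 5 of 5 each for taste and tuft cells, 3 of 3 each for mesenchyme and for immune cells, and 3, 3 and 2 of 3 for endothelium. The part of such cells in the receptor counts was not tested.

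Listed receptors lay closer to other listed genes than unlisted ones. For each receptor the distance was taken to the nearest gene outside the receptor family that all 3 complete lists held. The median distance was 190 kb for the 1363 receptors on no list for which it could be taken, 89.3 kb for the 100 on 1 list, 58.3 kb for the 26 on 2 lists and 37.2 kb for the 22 on all 3. Within 10 kb of such a gene lay 4.91% of the receptors on no list, 12% of those on 1 list, 19.2% on 2 and 36.4% on 3. Among the olfactory receptors alone the shares within 10 kb were 4.82%, 10.1%, 11.8% and 28.6%. Their medians were 188, 89.1, 51.3 and 69.3 kb, so that the order did not hold from 2 lists to 3. Receptors on no list were also farther from any other coding gene, listed or not, at a median of 134 kb against 26.0 kb for those on all 3. Among the olfactory receptors alone these medians were 140 kb on no list, 59.7 on 1, 49.2 on 2 and 62.6 on 3.

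**Figure D4:**
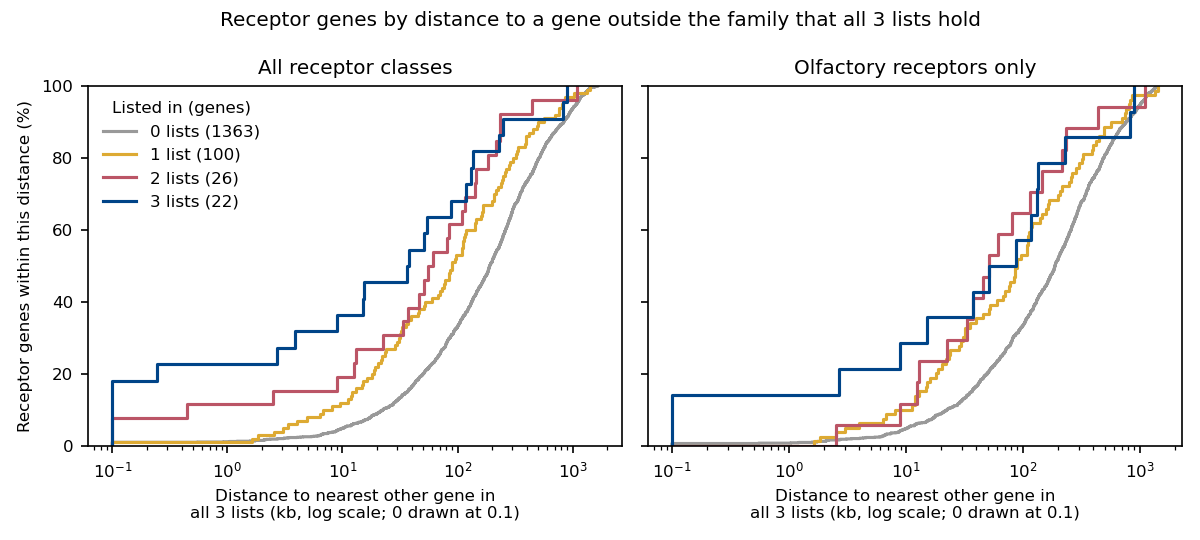
Cumulative percent of receptor genes (vertical axis) within a given distance of the nearest gene outside the family that all 3 lists hold (horizontal axis, kb, log scale, values under 0.1 drawn at 0.1), by the number of lists that hold the receptor, for all classes (left) and olfactory receptors (right). Over all classes the curve for receptors on all 3 lists stands at 36.4% at 10 kb, and the curve for the 1363 receptors on no list that have such a distance lies lowest there.

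The 8 recurrent receptors within 10 kb of such a gene were Tas1r1, Tas1r2, Tas1r3, Vmn1r4, Olfr56, Olfr77, Olfr920 and Olfr1404. Tas1r3 overlaps Dvl1, a Wnt pathway gene, on the opposite strand. Vmn1r4 lies 0.083 kb from Nt5c3, a pyrimidine nucleotidase, and Tas1r1 lies 0.243 kb from Zbtb48, a zinc finger gene. Olfr56 spans 156499 bases and overlaps Ifi47, an interferon-inducible GTPase gene, on the same strand, and Ifi47 was on all 3 lists. Olfr77 overlaps Gm7808. Olfr1404 lies 2.70 kb from Fcer1a and Tas1r2 3.85 kb from Aldh4a1. The labels do not say whether counting used the strand, so reads of an overlapping pair may have been counted for either gene. At the other end, Olfr1183 and Olfr1033 lay 891 and 827 kb from the nearest such gene.

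Overlap with another annotated gene on the same strand was found for 75 of the receptors on no list (5.49%) and for 19 of the 148 on any list (12.8%). By number of lists it was 12% on 1, 15.4% on 2 and 13.6% on 3. Overlap on either strand was found for 9.01% on no list, 19% on 1, 26.9% on 2 and 31.8% on 3. Among the olfactory receptors alone these shares were 7.78%, 17.7%, 17.6% and 28.6%. Transcript models differed as well. The longest annotated transcript was under 1200 bases for 16.6% of receptors on no list and 6.76% of those on any list. By number of lists the share was 5% on 1, 15.4% on 2 and 4.55% on 3. Its median was 2899 bases on no list and 3826 bases on any list, with 4228.5 on 1, 3307.5 on 2 and 3285 on 3. Models with 3 or more exons made up 42.8% of receptors on no list and 48.0% on any list. They were 45% on 1 list, 42.3% on 2 and 68.2% on all 3. Of these measures over all classes, only overlap on either strand changed steadily with the number of lists.

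Receptors that share sequence with another gene are uncertain, because a read may fit both. For each receptor the share of its transcript 31-mers (all runs of 31 bases) that also occur in another gene's transcripts was counted. It was above 50% for 142 of the 1363 receptors on no list that have a transcript with such runs (10.4%) and for 4 of the 148 on any list (2.70%), which were Vmn2r29 (79.9%), Olfr482 (56.5%), Vmn2r87 (56.1%) and Vmn1r10 (55.2%). Among the 22 on all 3 lists, 4 shared at least 20% of their 31-mers with 1 other gene. Tas1r2 shared 47.7% with Gm21969, a gene model on its strand that was on no complete list. Olfr168 shared 23.6% with Olfr166, which was on none. Olfr1393 (chromosome 11, 49278304 to 49282769, plus strand) shared 36.3% with Olfr1392 (chromosome 11, 49285282 to 49295891, plus strand), which was in E15.5 KO alone. Their coding sequences, both of 933 bases, differ at 40 positions (95.7% identical), and the first 150 coding bases are shown to let the closeness be seen, with the differing bases in capitals, from GENCODE M21 transcripts.
Olfr1393: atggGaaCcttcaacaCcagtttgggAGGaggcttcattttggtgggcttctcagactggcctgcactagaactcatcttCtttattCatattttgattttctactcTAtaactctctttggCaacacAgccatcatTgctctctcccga
Olfr1392: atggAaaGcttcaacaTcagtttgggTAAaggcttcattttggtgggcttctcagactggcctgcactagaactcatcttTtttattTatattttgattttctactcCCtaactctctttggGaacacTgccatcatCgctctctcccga
This stretch of 150 bases holds 13 of the 40 differing bases, so it is less alike than the 933 coding bases as a whole. Between the differing bases, runs such as the one in the middle are the same in both genes.

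Olfr482 (chromosome 7, 108092999 to 108097586, minus strand) was the recurrent receptor whose closest partner, at 20% or more, was itself on all 3. It shared 37.7% of its 31-mers (974 of 2582) with Fam103a1 (Ramac in the annotation), a gene outside the receptor family. Gm44870, a processed pseudogene of 357 bases (108094129 to 108094485), lies within Olfr482 on the same strand and was on no complete list. Of the 328 runs of 30 bases in Gm44870, 297 (90.5%) occur in Fam103a1 transcripts. At 357 bases, Gm44870 is too short to hold all 974 of the shared 31-mers. A run of 30 bases at 108094456 to 108094485 is shown because it stands in transcripts of Gm44870 and Fam103a1 alike.
Gm44870: atgagtgatacttctgaagaaattccaaat

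Closeness was also seen for receptors on 2 lists. Olfr111 and Olfr110 (98.1% identical over 951 coding bases) were listed in both E13.5 libraries and in E13.5 WT alone, respectively. Vmn1r9 and Vmn1r10, neighbours on chromosome 6 that share 1080 31-mers, were listed in the same libraries, E13.5 WT and E13.5 KO. For Olfr1062, 17 of 945 coding bases differ from Olfr1057, which was on no complete list. Vmn1r90 shares 21.4% of its 31-mers with Nlrp5-ps, which overlaps it on the same strand and was on all 3 lists.

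Listed receptors also tended to sit beside other listed receptors. Of the 1513, 1393 have another receptor within 50 kb on the chromosome as an immediate neighbour. In E13.5 WT, 14 of 118 receptors with a listed neighbour were listed themselves (11.9%), against 56 of 1275 without (4.39%). In E13.5 KO the shares were 12 of 126 (9.52%) and 62 of 1267 (4.89%), and in E15.5 KO 9 of 77 (11.7%) and 40 of 1316 (3.04%). The 14 in E13.5 WT included Olfr65, Olfr631, Olfr632 and Olfr633, which flank the beta-globin genes described below. They also included the pairs with shared sequence named above, Olfr110 with Olfr111 and Vmn1r9 with Vmn1r10. A stretch of chromosome 6, singled out after the values were seen, held 5 of the 8 Vmn1r receptors on 2 or 3 lists: Vmn1r4, Vmn1r8, Vmn1r9, Vmn1r10 and Vmn1r15, between 56924015 and 57259972. The annotation has 12 Vmn1r receptors there, of which 3 were on 1 list and 4 on none.

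The olfactory receptors that flank the beta-globin genes on chromosome 7 differed between the E13.5 lists and the E15.5 KO list. This region was singled out after the values were seen. The E15.5 WT list reaches none of these receptors, so age, sort and library coincide here too and cannot be told apart. Within 200 kb of the globin genes lie 24 receptors. Of these, E13.5 WT listed 6 (25.0%), the KO library of that age 4 (16.7%) and E15.5 KO 0. Elsewhere the receptors were at 4.84%, 5.24% and 3.90%. The 4 on both E13.5 lists were Olfr631 (103928825 to 103929784), Olfr632, Olfr633 and Olfr638, and the other 2, in E13.5 WT alone, were Olfr65 and Olfr624. The globin genes Hbb-bh1, an embryonic form, and Hbb-bh2 were likewise listed in both E13.5 libraries and not in E15.5 KO. Hbb-y, also an embryonic form, Hbb-bh0, Hbb-bt and Hbb-bs were on all 3 lists, and Hbb-bh3 was on none. Of 3 erythroid markers checked, Gata1, the erythroid transcription factor, was in both E13.5 lists and not in E15.5 KO, while Hba-a1 and Hbb-bt were on all 3. The part of erythroid cells in the listing of these receptors was not tested.

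**Figure D5:**
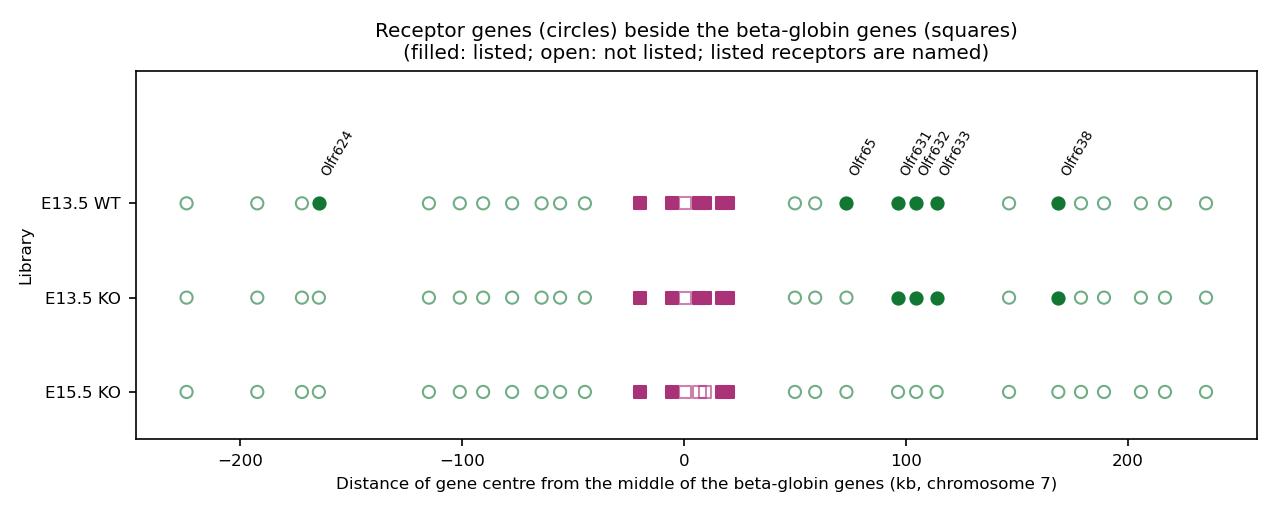
Receptor genes (circles) and beta-globin genes (squares) by distance from the middle of the globin genes (horizontal axis, kb) in each library (vertical axis), filled where listed. Olfr631, Olfr632, Olfr633 and Olfr638 are filled in both E13.5 rows, and no receptor is filled in the E15.5 KO row.

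The receptors on both E13.5 lists and not in E15.5 KO, 17 in all, were led in annotated span by Olfr111, Vmn2r29, Olfr1349, Olfr814, Vmn1r9, Vmn1r90, Olfr315, Olfr1062, Olfr632 and Olfr638. The 7 on both KO lists and not in E13.5 WT were Vmn2r87, Olfr46, Olfr571, Olfr958, Olfr523, Vmn1r8 and Taar4. They are 0.463% of the annotated receptors, beside 1.08% of the other coding genes with this pattern, and the 17 are 1.12% beside 2.61%. This set of 7 rests on a single WT library, as the E15.5 WT list reaches none of them.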

How the data were processed

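The deposited files used here hold, per library, an Ensembl identifier and a symbol for each gene and no values, so no count, level, depth or interval could be given. Per the submitters' processing notes, Seurat and the build mm10 were used. For the aligner, annotation release, filters and capture platform the status is: not given in the sources used here. Sample titles gave the groups.

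Members were picked by symbol and matched by identifier to GENCODE M21 (GRCm38, the assembly behind mm10). All 148 matched with the same symbol, and 2 of them, Olfr104-ps and Olfr1175-ps, carry -ps without a number and stay in under the rule. The 1513 annotated receptors include 25 not typed as protein-coding, none of them listed. Listing, overlaps between lists, distances and shared 31-mers were counted with Python 3.11.15 and pandas 2.3.3. The naming rule was checked on example symbols, and the counting of shared 31-mers on simulated sequences. The members and lists were chosen with earlier results of these data known. Named were receptors on all 3 lists, in the E15.5 WT stretch, in a list reported outside the sense organs, the longest of 2 sets split by age or genotype, and all listed Taar and Tas genes. Others are named for position or shared sequence, after their values were seen. The incomplete last line of the E15.5 WT list was dropped. The result of 1 marker list is not reported here.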

Additional observations from a re-analysis of the deposited data

How the results depend on the processing

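No paired analysis was possible because only 1 library stands in each group. Of 80 values under other choices, 68 stayed within 1.5 times the main count or within the 95% exact binomial interval of the share. That interval served as a yardstick only. It counts receptors as independent, although neighbours were more often listed together, and it does not measure a spread between libraries. The 12 that moved came from keeping fewer receptor classes. Olfactory receptors were 110 of the 148 listed, so without them the counts of the 3 libraries had to move. With olfactory receptors only, E15.5 KO held 36, all 3 lists 14, and E15.5 KO but not E13.5 KO 18. Without olfactory receptors, E13.5 WT held 20, E13.5 KO 21 and E15.5 KO 22, with 8 on all 3. At E13.5, 8 were then in KO only and 7 in WT only, and 46.4% were on both. Between the KO ages 11 were in the older library only and 10 in the younger only, so the lean to E13.5 was not seen outside the olfactory receptors. Keeping pseudogene names and dropping same-strand overlaps moved none of the 10 results. Dropping receptors with over 50% shared 31-mers or those near the beta-globin genes, both chosen after seeing the data, moved none either. These drops took out only 4 and 6 of the 148 listed receptors, too few to move any of the 10 results. Keeping protein-coding genes only and dropping names with an appended number removed no listed receptor. These 2 choices could therefore move nothing. They and the drops chosen after seeing the data supplied 10 each of the 68 values that stayed. Without depth, an unlisted gene cannot be called absent.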

Other observations

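Receptor names that end in -ps and a number, left out above, numbered 286 in the annotation, of which E13.5 WT listed 6 (2.10%), E13.5 KO 7 (2.45%) and E15.5 KO 10 (3.50%). Of the 18 on any complete list, Olfr1369-ps1 and Olfr1372-ps1 were on all 3, Olfr947-ps1 was on both KO lists and 15 were on 1 list. The annotation types Olfr1369-ps1 as protein-coding and Olfr1372-ps1 as a transcribed pseudogene. These counts, of 6, 7 and 10 genes in single libraries, were highest in E15.5 KO, where the receptors of the main count were fewest. Without olfactory receptors the main count was also highest there, at 22 beside 20 in E13.5 WT and 21 in E13.5 KO.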
